A study of Mus musculus with 6 samples.

Results

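The cadherins and protocadherins are the calcium-dependent adhesion molecules of the cell surface, and here they are the 93 genes of 26264 in the expression table whose symbol starts with Pcdh, or with Cdh followed by a digit. That rule reads symbols only, but it was set with earlier results of these data known. By family they are 5 type I and 13 type II classical cadherins, 5 atypical cadherins, 4 delta-1, 5 delta-2 and 3 other non-clustered protocadherins, and 14 alpha, 22 beta and 22 gamma genes of the clustered protocadherins. Their levels were read in 6 mouse brain libraries of ribosome-bound mRNA, prepared by RiboTag, a mouse line whose Cre-expressing cells tag a ribosomal protein, so that an antibody can pull down the ribosomes of those cells. All mice were Gfap-Cre; RiboTag, so the promoter of the astrocyte gene Gfap drove Cre, and the labels give the captured cells as astrocytes together with some neurons and oligodendrocytes. 3 mice had eaten PLX5622 at 1200 ppm for 1 month, an inhibitor of the receptor Csf1r that is used to remove microglia, and 3 had eaten control diet for the same time. The sources used here do not give age or sex, and the labels call the 3 libraries of a diet biological replicates. The study asked if the drug alters cholesterol metabolism in neuroglia; the adhesion genes are read here from the same libraries.

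Classical cadherins bind the same cadherin on a neighbouring cell and are held to actin inside the cell by catenins. The clustered protocadherins lie in 3 neighbouring gene arrays; in the alpha and gamma arrays each gene adds its own first exon to constant exons shared by the whole array, whereas each beta gene is a single exon. Cells choose among these first exons, and in mouse brain the resulting combinations are known for letting a neuron recognise its own branches and for shaping contacts between astrocytes and neurons.

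The values are TPM, transcript counts scaled by gene length and by library total, made by the authors; they are per gene length, so levels of different genes can be set side by side, but they keep no read depth. The 14 astrocyte marker genes summed to between 25596 and 45275 TPM in a library, the 9 oligodendrocyte markers to between 2980 and 4361 TPM and the 12 neuron markers to between 1149 and 2230 TPM, as the labels describe. Microglial transcripts went against the labels of 2 libraries. Csf1r had 0.811, 0.0208 and 2.05 TPM in the libraries labelled PLX5622 1, 2 and 3, against 4.33, 4.27 and 0.118 TPM in those labelled control 1, 2 and 3, so the library labelled PLX5622 3 was above the one labelled control 3. The 10 microglia markers together summed to 38.0, 28.5 and 51.7 TPM in the libraries labelled PLX5622, against 118, 75.6 and 35.8 TPM in those labelled control. Libraries are therefore named by their labels, always in the order of replicates 1, 2 and 3, and results are also given without the pair labelled PLX5622 3 and control 3. In a regression over 13196 genes, the fold changes of the authors' deposited table took positive weights of 0.320, 0.301 and 0.408 for the libraries labelled PLX5622 1, PLX5622 2 and control 3. The same regression gave the authors' deposited fold changes negative weights of −0.291, −0.375 and −0.364 for those labelled PLX5622 3, control 1 and control 2. Values from that table are kept apart from values by label.

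Most cadherins and protocadherins were low in this captured RNA, and a few were abundant. Of the 93 members, 3 were listed at 0 in all libraries, namely Pcdha6, Pcdha7 and the kidney cadherin Cdh16, and 39, these 3 included, had a mean under 1 TPM. That left 54 that were tested between the diets, 23 outside the clusters, 14 beta and 17 gamma genes, and no alpha gene. The members together summed to 518, 543 and 572 TPM in the libraries labelled PLX5622, against 258, 475 and 369 TPM in those labelled control. All 3 libraries labelled PLX5622 were above all 3 labelled control, and the one labelled control 1 was the lowest by far. The gamma protocadherin Pcdhgc3 had the highest mean, 66.2 TPM, followed by N-cadherin Cdh2 at 46.8 TPM, Cdh20 at 40.6 TPM and Pcdh10 at 40.5 TPM. The ranges of these 4 genes over the 6 libraries overlapped, so their order is not firm. Next came Pcdh9 at 22.3 TPM and Cdh11 at 20.2 TPM, also with overlapping ranges, and every other member had a mean under 20 TPM. At the low end, the vascular endothelial cadherin Cdh5 stayed between 0.0394 and 0.150 TPM, and the epithelial cadherin Cdh1 between 0.0536 and 0.124 TPM.

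**Figure D1:**
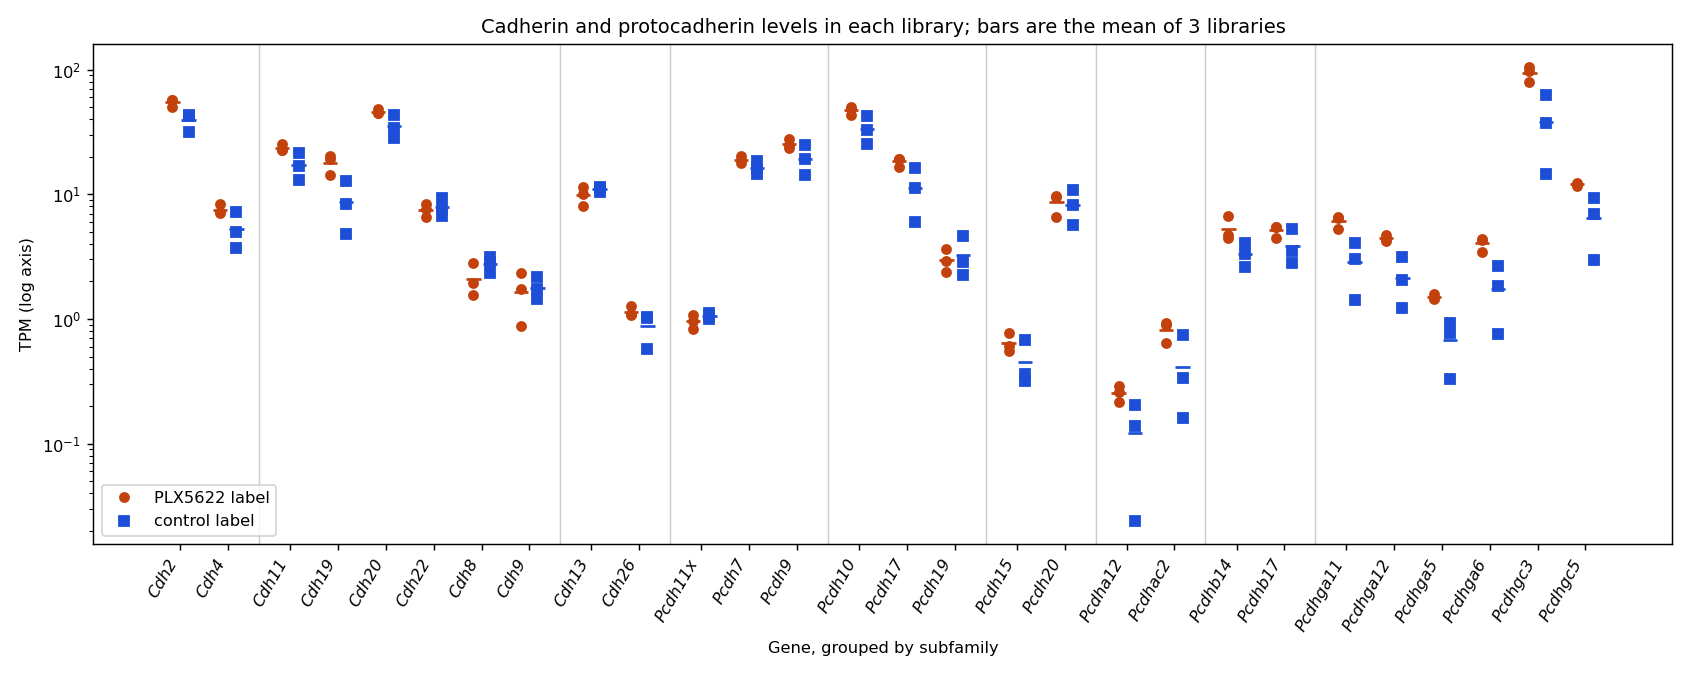
TPM on a log axis of 28 cadherins and protocadherins, by family from type I cadherins at the left to gamma protocadherins at the right. They were chosen by level and by the smallest limma p in each direction in these same libraries, so the separation of groups is in part selected. Each point is 1 library (circles labelled PLX5622, squares labelled control) and each bar the mean of 3. Pcdhgc3 reached 105 TPM, while the alpha genes stayed under 1 TPM.

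The gamma protocadherins, N-cadherin Cdh2, the type II cadherins Cdh11, Cdh19 and Cdh20, and the delta-2 protocadherins Pcdh10 and Pcdh17 had higher levels in the libraries labelled PLX5622, but no member passed the test between the diets. The comparison by label used limma on log2(TPM + 1), with p-values adjusted by Benjamini-Hochberg over all 13084 tested genes, and differences are PLX5622 minus control on that log2 scale. At an adjusted p of 0.05 it called 0 members higher and 0 lower, and 0% of all tested genes in either direction. The lowest limma adjusted p of any member was 0.205. At an unadjusted p under 0.05, 25 of the 54 tested members were higher and 0 lower, against a background of 14.7% higher and 8.02% lower among all tested genes. Of these 25, 16 were gamma genes, 1 was a beta gene and 8 lay outside the clusters. Gamma genes share constant exons, and the library labelled control 1 was the lowest in all 17 tested. The 16 are therefore not independent observations. In 24 tested members every library labelled PLX5622 was above every one labelled control, and in 0 the reverse, against 19.4% and 9.39% of all tested genes. A positive difference was found in 47 of the 54 members, against 61.1% of all tested genes, and the median difference was 0.43 in the members and 0.089 in all tested genes. These counts cover the members above 1 TPM only. With no filter, 74 of the 90 members with any signal had a positive difference, against 54.7% of all genes, with a median of 0.22, and 30 had an unadjusted p under 0.05 with the higher level on PLX5622 by label, against 9.08% higher and 6.78% lower among all genes. In bulk RNA of this kind, fewer cells of a type and less RNA per cell cannot be told apart.

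**Figure D2:**
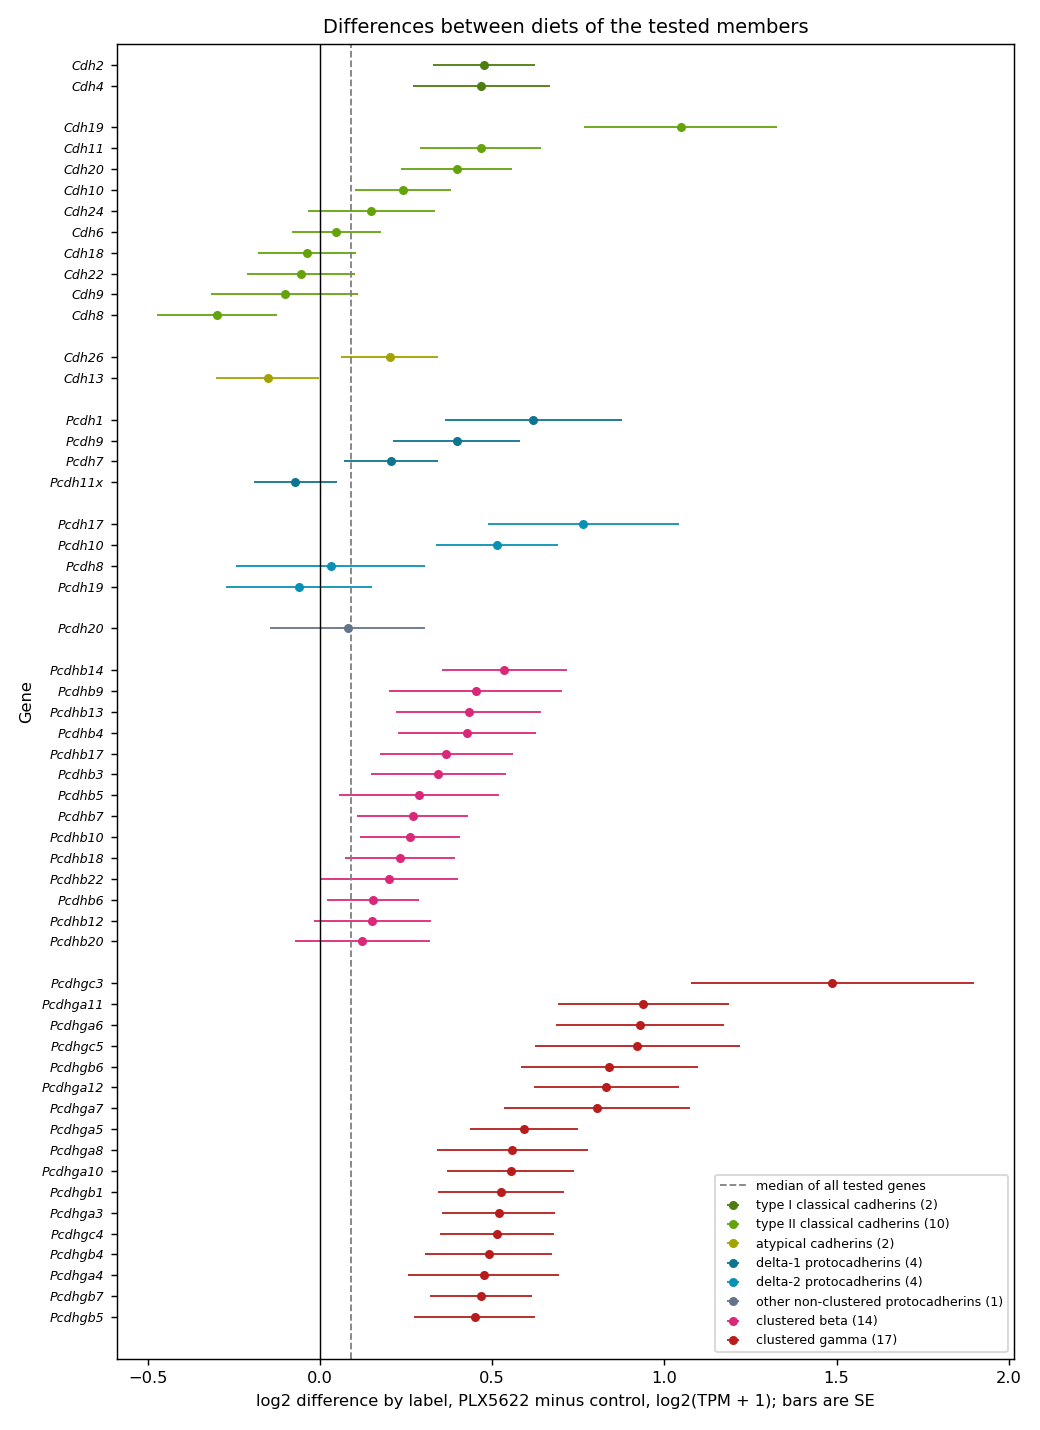
Difference between diets by label (PLX5622 minus control, log2(TPM + 1), limma, with standard errors, 3 libraries each) of the 54 tested members, sorted within families. All 17 gamma and 14 beta genes lie right of 0, those outside the clusters on both sides, and the dashed line is the median of all tested genes, 0.089.

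These counts moved with the libraries in the fit. Of the single libraries, leaving out the one labelled control 1 lowered the members' median most. The library labelled control 1 held the lowest of the 6 values in 46 of the 54 tested members, against 54.8% of all tested genes. Without it, the members' median difference was 0.23, 18 members were higher and 0 lower at a low unadjusted p, against 6.34% and 6.24% of genes, and 44 of the 56 then tested were positive against 54.4% of genes. Without the library labelled PLX5622 3, 16 members were higher and 0 lower at a low unadjusted p, against 4.64% and 3.42% of genes. Without both the libraries labelled PLX5622 3 and control 3, they were also 16 and 0, against 2.43% and 1.66% of genes, and 48 of the 52 then tested were positive, against 63.7%. In each of these fits, 14 of the 16 were gamma genes and the others lay outside the clusters. Without the library labelled control 2, limma called 33 members higher and 0 lower at an adjusted p of 0.05. Of all genes in that fit, 19.9% were called higher and 8.82% lower. No member passed in any other fit, and the cause was not tested.

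The gamma protocadherins had the largest median difference of the families tested. Their 22 genes summed to 131, 164 and 155 TPM in the libraries labelled PLX5622, against 28.3, 104 and 68.2 TPM in those labelled control, which is 149.8 ± 16.8 TPM against 66.9 ± 38.1 TPM (SD, n = 3 each). The groups did not overlap, the libraries labelled control spread far more than those labelled PLX5622, and the highest sum was 5.79 times the lowest. All 17 tested gamma genes had a positive difference, against 61.1% of all tested genes. Their median was 0.56 and their range went from 0.45 to 1.49. In 16 of them the libraries did not overlap and the unadjusted p was under 0.05. The exception was Pcdhga4. Among all tested genes, 19.4% did not overlap in that direction and 14.7% were higher with a low unadjusted p. With a pseudocount of 0.1 in place of 1 the median was 1.04. The filter was a mean over all 6 libraries. Pcdhga3, Pcdhga5, Pcdhga10, Pcdhgb1, Pcdhgb4, Pcdhgb5 and Pcdhgc4 averaged under 1 TPM in the libraries labelled control. They passed the filter through the libraries labelled PLX5622, which favoured a positive difference. With no filter all 22 gamma genes were positive, against 54.7% of genes, with a median of 0.53. Of these, 19 had a low unadjusted p, against 9.08% higher among all genes. Without the library labelled control 1, all 18 then tested were positive, against 54.4% of genes, with a median of 0.35. Without those labelled PLX5622 3 and control 3, all 17 were positive, against 63.7% of genes, with a median of 0.65. Then 14 had a low unadjusted p, against 2.43% higher among all genes. Because a gamma transcript shares its constant exons with the rest of the array, and first exons of neighbouring genes are alike in sequence, the split of reads among the 22 genes is uncertain. The sources used here do not say how shared exons were counted.

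Pcdhgc3, one of the C-type gamma isoforms and known in mouse cortical neurons for promoting dendrite branching, made up most of the gamma signal. It had 79.0, 105 and 98.1 TPM in the libraries labelled PLX5622, against 14.6, 62.5 and 37.5 TPM in those labelled control. The groups did not overlap, and the library labelled control 1 stood far under the other five. The difference was 1.49 ± 0.41 (log2, SE, n = 3 each, limma adjusted p = 0.205), the largest of the tested members, and 0.93 without the library labelled control 1. Without those labelled PLX5622 3 and control 3 it was 1.55. Its share of the gamma sum was 60.3%, 64.3% and 63.4% in the libraries labelled PLX5622, against 51.8%, 59.9% and 55.0% in those labelled control, so the shares did not overlap either, by a narrow margin. The remaining 21 gamma genes together had 52.1, 58.3 and 56.6 TPM in the libraries labelled PLX5622, against 13.6, 41.9 and 30.7 TPM in those labelled control.

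Pcdhgc5, another C-type isoform, which binds GABA receptors, was second in the array. It had 12.1, 12.4 and 11.7 TPM in the libraries labelled PLX5622, against 2.97, 9.41 and 6.92 TPM in those labelled control. The 3 values labelled PLX5622 lay within 1 TPM of each other and above all others, and the difference was 0.92 ± 0.30 (limma adjusted p = 0.205), falling to 0.52 without the library labelled control 1. The A-type isoforms Pcdhga11, Pcdhga6, Pcdhga12 and Pcdhga5 were lower in level and differed by 0.94 ± 0.25, 0.93 ± 0.24, 0.83 ± 0.21 and 0.59 ± 0.16. Pcdhga12, which had the smallest unadjusted p of any member (limma, adjusted p = 0.205), stood at 4.24, 4.67 and 4.36 TPM in the libraries labelled PLX5622, against 1.22, 3.14 and 2.07 TPM in those labelled control. Pcdhga11 stood at 5.23, 6.42 and 6.54 TPM in the libraries labelled PLX5622, against 1.41, 4.1 and 3.02 TPM in those labelled control. In each of these 4 genes the groups did not overlap and the library labelled control 1 was the lowest, as it was in all 17 tested gamma genes.

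**Figure D3:**
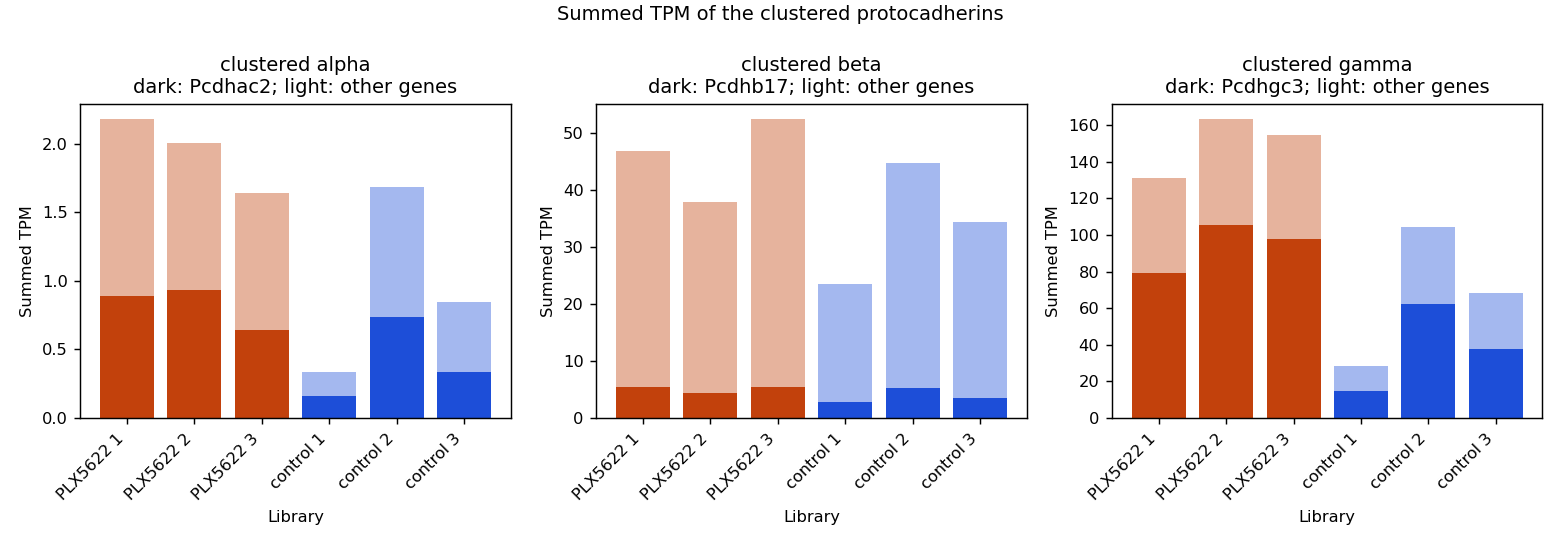
Summed TPM of the 14 alpha, 22 beta and 22 gamma genes in each library, with the most abundant gene of each array dark and the others light; the 3 panels have their own axes, starting at 0. The gamma sum is higher in all 3 libraries labelled PLX5622 than in any labelled control, while the beta sums overlap.

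The beta protocadherins differed less. Their 22 genes summed to 46.8, 37.9 and 52.6 TPM in the libraries labelled PLX5622, against 23.6, 44.8 and 34.4 TPM in those labelled control, and here the library labelled control 2 was above the one labelled PLX5622 2. All 14 tested beta genes had a positive difference, against 61.1% of all tested genes. Their median was 0.28, or 0.15 without the library labelled control 1. The low unadjusted p came up in 1 of the 14, Pcdhb14, against 14.7% higher among all tested genes. That gene was also the 1 without overlap, against 19.4% of all tested genes. With no filter 19 of 22 were positive, against 54.7% of genes. Pcdhb14 had 4.72, 4.50 and 6.65 TPM in the libraries labelled PLX5622, against 2.62, 4.07 and 3.31 TPM in those labelled control, a difference of 0.53 ± 0.18 (limma adjusted p = 0.205). Its groups did not overlap, and the library labelled PLX5622 3 was the highest. Pcdhb17, the most abundant beta gene, had 5.51, 4.44 and 5.5 TPM in the libraries labelled PLX5622, against 2.81, 5.28 and 3.5 TPM in those labelled control; these groups overlapped, with a difference of 0.37 ± 0.19, or 0.21 without the library labelled control 1. No beta gene dominated its array: Pcdhb17 made up between 10.2% and 11.9% of the beta sum in every library.

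The alpha protocadherins were close to the bottom of the range and none was tested. Summed over 14 genes they had 2.18, 2.01 and 1.64 TPM in the libraries labelled PLX5622, against 0.336, 1.69 and 0.847 TPM in those labelled control, and the sums overlapped, the library labelled control 2 being above the one labelled PLX5622 3. The C-type gene Pcdhac2, known in mouse for spacing serotonergic axons, was the most abundant alpha gene. It had 0.888, 0.932 and 0.644 TPM in the libraries labelled PLX5622, against 0.161, 0.737 and 0.337 TPM in those labelled control, with overlap. Pcdha12 was next, at 0.289, 0.261 and 0.215 TPM in the libraries labelled PLX5622, against 0.0239, 0.205 and 0.140 TPM in those labelled control, without overlap. With no filter all 12 alpha genes above 0 had a positive difference, against 54.7% of genes. The median was only 0.049 on the log2(TPM + 1) scale, which understates differences of low genes. The smallest was 0.00045, and Pcdha4 was above 0 only in the library labelled PLX5622 2, at 0.0076 TPM. Signs so near the floor carry little.

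Outside the clusters the picture was mixed. Of 23 tested members, 16 had a positive and 7 a negative difference, against 61.1% positive among all tested genes, with a median of 0.20. A low unadjusted p came up in 8, all higher in the libraries labelled PLX5622, against 14.7% higher among all tested genes. Without the library labelled control 1, 12 of 23 were positive, against 54.4% of genes, with a median of 0.082. Then 4 had a low unadjusted p, against 6.34% higher among all genes. Without the libraries labelled PLX5622 3 and control 3, 17 of 21 were positive, against 63.7% of genes, with a median of 0.20. Then 2 had a low unadjusted p, against 2.43% higher among all genes.

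Of the type I classical cadherins, the mediators of strong adhesion, Cdh2 and the retinal cadherin Cdh4 were tested, and Cdh1, Cdh3 and Cdh15 were under 1 TPM. Cdh2, the main cadherin of neural tissue, had 49.6, 56.6 and 57.1 TPM in the libraries labelled PLX5622, against 31.7, 43.0 and 42.7 TPM in those labelled control. The groups did not overlap, and the difference was 0.48 ± 0.15 (limma adjusted p = 0.205). Cdh4 had 7.16, 7.04 and 8.37 TPM in the libraries labelled PLX5622, against 3.72, 7.15 and 5.02 TPM in those labelled control. Here the library labelled control 2 lay above the one labelled PLX5622 2, and the difference was 0.47 ± 0.20 (limma adjusted p = 0.212). Without the library labelled control 1 the difference of Cdh4 was 0.28.

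The type II classical cadherins, which mark particular cell groups and circuits in the brain, went both ways. Of 10 tested members, 6 were positive, against 61.1% of all tested genes. Their median was 0.099, or −0.0073 without the library labelled control 1. Cdh19, known from glial cells of the peripheral nervous system, had 14.4, 19.2 and 20.3 TPM in the libraries labelled PLX5622, against 4.84, 12.7 and 8.37 TPM in those labelled control. Its groups did not overlap, and the difference of 1.05 ± 0.28 (limma adjusted p = 0.205) was the largest outside the clusters, at 0.73 without the library labelled control 1. Cdh11, a cadherin of mesenchymal cells and brain, had 22.5, 22.6 and 25.4 TPM in the libraries labelled PLX5622, against 13, 21.3 and 16.8 TPM in those labelled control, a difference of 0.47 ± 0.18 without overlap, or 0.30 without the library labelled control 1. Cdh20, the most abundant type II gene, had 48.2, 44.8 and 45.1 TPM in the libraries labelled PLX5622, against 28.1, 43.5 and 34.1 TPM in those labelled control. The lowest library labelled PLX5622 was just above the highest labelled control, and the difference was 0.40 ± 0.16 (limma adjusted p = 0.206), or 0.25 without the library labelled control 1.

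The negative differences of the type II genes were in Cdh8, Cdh9, Cdh18 and Cdh22. Cdh8, found at particular synapses of sensory and striatal circuits, had 2.82, 1.55 and 1.95 TPM in the libraries labelled PLX5622, against 2.34, 3.14 and 2.87 TPM in those labelled control. The library labelled PLX5622 1 was above the one labelled control 1, so the groups overlapped, and the difference was −0.30 ± 0.17. Cdh9, needed for mossy fibre synapses in the mouse hippocampus, had 2.35, 0.872 and 1.73 TPM in the libraries labelled PLX5622, against 1.44, 2.19 and 1.73 TPM in those labelled control, with the difference at −0.10 ± 0.21. Both the highest and the lowest value of Cdh9 were in libraries labelled PLX5622. Cdh22, a cadherin of pituitary and brain, had 8.29, 7.67 and 6.59 TPM in the libraries labelled PLX5622, against 6.73, 9.33 and 7.57 TPM in those labelled control, with a difference of −0.054 ± 0.16. Cdh18, at −0.038 ± 0.14 and named because it completes the negative ones, was the last of these 4, and it was at 0.048 without the libraries labelled PLX5622 3 and control 3. No neuron marker was called either, but all 12 had a negative difference, against 38.9% of all tested genes, and they summed to 1756, 1149 and 1194 TPM in the libraries labelled PLX5622, against 1891, 2230 and 1961 TPM in those labelled control. Their part in these differences was not tested.

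Of the atypical cadherins, Cdh13 and Cdh26 were tested. Cdh13, or T-cadherin, which is anchored by a lipid and has no tail for catenins, had 11.5, 9.97 and 8.10 TPM in the libraries labelled PLX5622, against 10.4, 11.1 and 11.4 TPM in those labelled control. The library labelled PLX5622 1 was the highest of all and the one labelled PLX5622 3 the lowest, and the difference was −0.15 ± 0.15. It was −0.26 without the library labelled PLX5622 1, −0.031 without the one labelled PLX5622 3 and −0.0077 without those labelled PLX5622 3 and control 3. Cdh26 was just above the filter, with 1.26, 1.08 and 1.10 TPM in the libraries labelled PLX5622, against 0.576, 1.04 and 1.02 TPM in those labelled control. Its mean in the libraries labelled control, 0.876 TPM, was under the filter. The difference was 0.20 ± 0.14, or 0.082 without the library labelled control 1.

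Delta protocadherins have longer tails with conserved motifs; the delta-1 tail binds a protein phosphatase, and delta-2 members recruit the WAVE actin regulators. Among delta-1 genes, Pcdh9 had 24.8, 23.5 and 27.5 TPM in the libraries labelled PLX5622, against 14.4, 24.6 and 19.0 TPM in those labelled control, a difference of 0.40 ± 0.18 with overlap. Pcdh7 had 18.7, 17.7 and 20.4 TPM in the libraries labelled PLX5622, against 14.5, 18.4 and 16.0 TPM in those labelled control, a difference of 0.21 ± 0.14 with overlap. The X-linked Pcdh11x was near 1 TPM in every library, between 0.827 and 1.11 TPM, and differed by −0.072 ± 0.12. The 1 delta-1 gene with a low unadjusted p was Pcdh1, named after its values were seen, with a difference of 0.62 ± 0.26 (limma adjusted p = 0.210). Leaving out control 1 gave 0.36 for Pcdh1, which then no longer had a low unadjusted p, 0.21 for Pcdh9 and 0.13 for Pcdh7.

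Among delta-2 genes, Pcdh10, which in mouse guides striatal and thalamic axons, had 43.5, 48.5 and 50.4 TPM in the libraries labelled PLX5622, against 25.4, 42.1 and 33.0 TPM in those labelled control. Its groups did not overlap, the library labelled control 2 coming close, and the difference was 0.51 ± 0.18 (limma adjusted p = 0.205), or 0.34 without the library labelled control 1. Pcdh17, which acts in axon extension and at corticostriatal synapses, had 16.7, 19.2 and 19.3 TPM in the libraries labelled PLX5622, against 6.0, 16.3 and 11.2 TPM in those labelled control. Its groups did not overlap, and the difference of 0.76 ± 0.28 (limma adjusted p = 0.205) was the largest of the non-clustered protocadherins, at 0.41 without the library labelled control 1. Pcdh19, an X-linked gene that causes epilepsy in humans when mutated, had 3.66, 2.36 and 2.94 TPM in the libraries labelled PLX5622, against 2.25, 4.59 and 2.85 TPM in those labelled control. Both ends of that range were in libraries labelled control, and the difference was −0.060 ± 0.21. Of the other non-clustered genes, Pcdh20 differed by 0.080 ± 0.22 over a range from 5.69 to 10.7 TPM. Pcdh15, which with Cdh23 forms the tip link of inner ear hair cells, had 0.609, 0.555 and 0.776 TPM in the libraries labelled PLX5622, against 0.317, 0.684 and 0.362 TPM in those labelled control, and was under the filter.

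Promoters are shown for Pcdh10 and Cdh20, the most abundant members with a window here, whose groups did not overlap, and for Cdh22, a member whose groups overlapped. RefSeq windows on build GRCm38.p6, from 250 bases before to 50 after a gene start, were found for 22 members in 25 windows. No clustered protocadherin was among them. Capitals mark the letters TTGGC on either strand, part of the site of NFI factors, which act in astrocyte development.
Pcdh10, chr3:45378148-45378447, plus strand: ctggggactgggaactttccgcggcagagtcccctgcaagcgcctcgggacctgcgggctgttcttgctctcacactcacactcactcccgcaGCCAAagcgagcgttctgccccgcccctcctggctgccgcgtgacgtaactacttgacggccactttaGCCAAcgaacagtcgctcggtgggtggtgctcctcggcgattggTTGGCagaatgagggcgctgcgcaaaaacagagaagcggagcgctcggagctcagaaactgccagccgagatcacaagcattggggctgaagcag
Cdh20, chr1:104768270-104768569, plus strand: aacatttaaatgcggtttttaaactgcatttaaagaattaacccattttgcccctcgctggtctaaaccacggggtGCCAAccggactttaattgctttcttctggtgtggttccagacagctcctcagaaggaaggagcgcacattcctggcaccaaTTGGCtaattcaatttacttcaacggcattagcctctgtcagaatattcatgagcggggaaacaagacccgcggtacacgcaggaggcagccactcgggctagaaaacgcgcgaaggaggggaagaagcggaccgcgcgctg
Cdh22, chr2:165234688-165234987, minus strand: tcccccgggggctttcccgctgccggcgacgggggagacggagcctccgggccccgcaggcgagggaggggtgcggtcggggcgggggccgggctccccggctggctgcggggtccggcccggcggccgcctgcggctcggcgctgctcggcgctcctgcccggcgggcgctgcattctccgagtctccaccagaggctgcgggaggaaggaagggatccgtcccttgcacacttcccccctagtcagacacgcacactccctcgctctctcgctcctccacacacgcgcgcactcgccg
The marked letters occur 3 times in the window of Pcdh10, 2 times in that of Cdh20 and 0 times in that of Cdh22. They occur in 17 of the 25 member windows, against 46.7% of 32851 windows of 300 bases. Counts did not separate members by overlap of the groups. Among members with overlap, Pcdh8, Pcdh19 and Pcdh20 had 2 matches each and Pcdh7 had 0. Among those without, Pcdh17 had 1 and Cdh26 had 0. The window of Cdh22 holds 38 CG pairs, that of Pcdh10 24 and that of Cdh20 18. GGGCGG, the GC box, was searched on both strands and is in 9 of the 25 member windows, against 35.7% of all, with 1 match in Pcdh10 and 1 in Cdh22. CANNTG, the E-box, reads alike on both strands and is in 15 of the 25, against 72.3% of all. Its 1 match in Cdh20 shares 3 bases with a marked TTGGC. Such matches describe these windows only.

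The members were longer than most tested genes, and levels moved with gene length from library to library. Relative gene length was taken as the deposited baseMean over the mean TPM, set to 1 at the median tested gene. Tested members had a median relative length of 1.49, and 47 of the 54 were longer than the median tested gene. Across 13083 genes, which share each library and are not replicates, a library's deviation from the mean of all 6 correlated with log2 length at r = 0.377, 0.198 and 0.429 in the libraries labelled PLX5622, against −0.494, 0.307 and −0.467 in those labelled control. Long genes were thus relatively low in the libraries labelled control 1 and control 3 and relatively high in the other four. In the 2450 genes as long as the middle range of the members, 1.16 to 1.60, the median difference was 0.19, and it was 0.50 in the 26 members among them.

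With each library's trend on length removed by a loess curve, the members' median difference was 0.24, against −0.00066 for all genes, and 41 of the 54 members were positive, against 49.9% of genes. At an unadjusted p under 0.05, 19 members were then higher and 3 lower, against 11.6% and 11.3% of genes. The gamma genes kept their sign, with 17 of 17 positive, but their median was 0.35 and 13 had a low unadjusted p, against 0.56 and 16 in the TPM as deposited, and Pcdhgc3 differed by 1.28. Cdh2 then differed by 0.26, Cdh11 by 0.24, Cdh20 by 0.21 and Pcdh10 by 0.29. Outside the clusters, 12 of 23 were positive. The 3 lower members were Cdh8 at −0.52, Cdh13 at −0.33 and Pcdh11x at −0.30. Under size-factor scaling of the TPM values, which brought the median of all genes to 0.012, the members' median was 0.38 and the gamma median 0.52. Of all genes with a low unadjusted p, 64.7% were higher by label in the TPM as deposited, 54.4% under this scaling and 50.5% with the length trend removed.

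**Figure D4:**
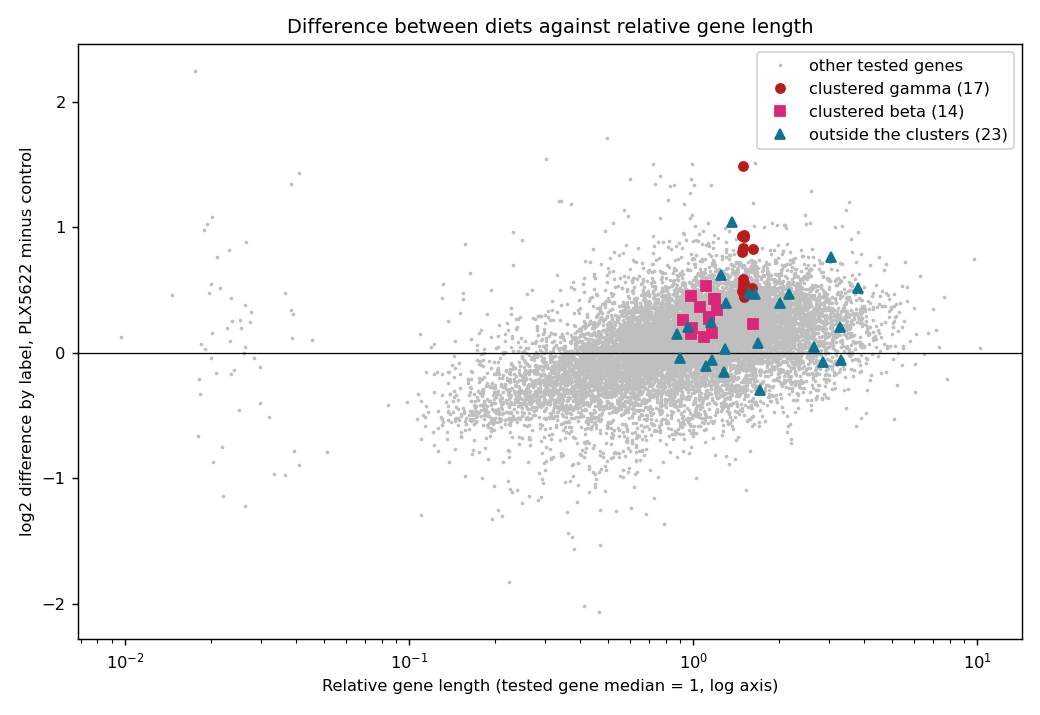
Difference between diets by label (log2, PLX5622 minus control) against relative gene length on a log axis, 1 point per tested gene; gamma genes are red circles, beta genes pink squares and members outside the clusters blue triangles. Gamma genes sit at a relative length near 1.5 and between 0.45 and 1.49 in difference, while all tested genes of the members' middle range of length had a median of 0.19.

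Limma called 0 of the 14 astrocyte markers, which deviated across libraries in the same order as the gamma genes in the libraries labelled control. The 14 astrocyte markers, each with a positive difference, summed to 40780, 44707 and 45275 TPM in the libraries labelled PLX5622, against 25596, 35969 and 31232 TPM in those labelled control. The median deviation of the 17 tested gamma genes from the 6-library mean was 0.24, 0.39 and 0.28 in the libraries labelled PLX5622, against −0.75, 0.028 and −0.20 in those labelled control. For the astrocyte markers it was 0.19, 0.26 and 0.31 in the libraries labelled PLX5622, against −0.61, 0.011 and −0.21 in those labelled control. Both sets were thus lowest in the library labelled control 1 and next lowest in the one labelled control 3. The same held for all tested genes, at −0.19 and −0.0068, and for the tested beta genes, at −0.44 and −0.11. This order was therefore not particular to the gamma genes and astrocyte markers. The part of the astrocyte share in the gamma difference was not tested. Endothelial markers were low throughout, the 7 genes summing to 4.03 ± 0.914 TPM in the libraries labelled PLX5622 and 5.73 ± 0.838 TPM in those labelled control (SD, n = 3 each).

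**Figure D5:**
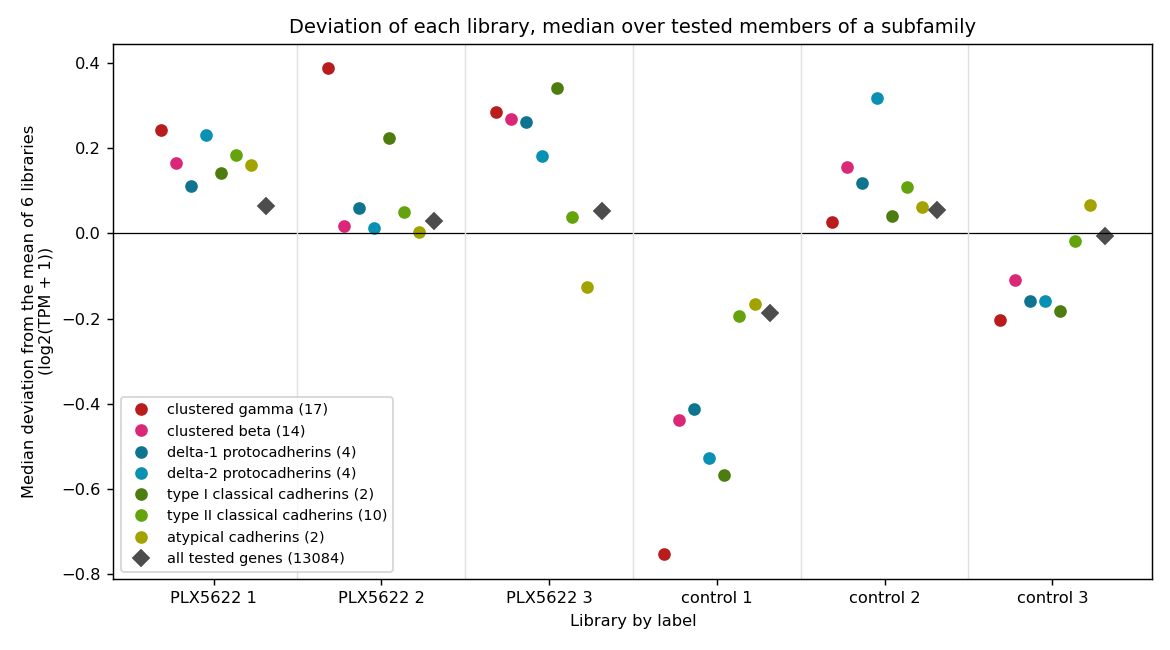
Median deviation of each library from the mean of all 6, in log2(TPM + 1), over the tested members of each family; grey diamonds are all 13084 tested genes. The gamma genes go furthest in the library labelled control 1, at −0.75, where all tested genes are at −0.19.

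The authors' deposited table, whose numerator is not named and whose fold changes follow another grouping of the libraries than the labels, called no member. It holds 90 members, of which 0 had an adjusted p and 0 an unadjusted p under 0.05, against 0.0698% and 0.847% of the 20062 genes in the authors' deposited table. The lowest p in the authors' deposited table was 0.0918, for Pcdh12, a protocadherin of endothelial cells that was under 0.05 TPM in every library. There, 49 of the 90 members had a positive fold change, against 46.3% of genes, with a median of 0.058. By array, 22 of 22 gamma genes were positive in the authors' deposited table, with a median of 0.33, as were 5 of 22 beta genes, with a median of −0.10, and 7 of 12 alpha genes. Pcdhgc3 had a deposited log2 fold change of 0.35 with a standard error of 0.76 (p = 0.649 in the authors' deposited table), and Cdh19 one of 0.14 with a standard error of 0.43. The labelled difference and the deposited fold change rest on the same 6 libraries, so they are not separate evidence.

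The partners of these genes were read from lists. Of 14 catenins and junction linkers, which tie cadherins to actin, 0 passed the adjusted threshold. Of 13 tested, 12 were positive, against 61.1% of all tested genes, with a median of 0.32. A low unadjusted p came up in 6, all higher, beside the 14.7% of all genes given above: Ctnna1, Ctnnb1, Ctnnd1, Ctnnd2, Jup and Vcl. Beta-catenin Ctnnb1, which binds the tail of classical cadherins, had 361, 345 and 376 TPM in the libraries labelled PLX5622, against 200.2, 321 and 272 TPM in those labelled control. Its groups did not overlap, and the difference was 0.47 ± 0.17 (limma adjusted p = 0.205). Of 11 regulators of the clustered genes, 10 were tested, all positive, with a median of 0.35. A low unadjusted p came up in 6, namely Ctcf, Rad21, Smc3, Stag1, Nipbl and Smchd1, beside the same 14.7%. The groups of Rad21 and Smc3 overlapped. Relative length in these 6 went from 1.15 in Rad21 to 3.48 in Nipbl, and values for these lists are not corrected for length. Ctcf, the DNA-binding factor that with the cohesin ring of Rad21 and Smc3 loops enhancers to first exons of the arrays, differed by 0.37 ± 0.16, and Rad21 by 0.77 ± 0.28. The library labelled control 1 held the lowest value in 13 of the 13 tested catenins and linkers and in 10 of the 10 regulators. Among all tested genes that share was 54.8%. Without that library, 11 of the 13 catenins and linkers were positive, with a median of 0.20 and 3 with a low unadjusted p. The 10 regulators stayed positive, with a median of 0.23 and 1 with a low unadjusted p. Among all genes in that fit, 54.4% were positive and 6.34% were higher with a low unadjusted p. The difference was then 0.29 for Ctnnb1, 0.22 for Ctcf and 0.43 for Rad21. Without the libraries labelled PLX5622 3 and control 3, 1 of the catenins and linkers and 0 of the regulators had a low unadjusted p. Among all genes 2.43% were then higher with a low unadjusted p. Of 10 effectors and sheddases, including the WAVE subunits and the protease Adam10 that cuts cadherins, 7 were positive, with a median of 0.23. That is near the 61.1% of all tested genes. A low unadjusted p came up in 1, Cyfip1, against 14.7% higher among all genes. Cyfip1 did not have it without the library labelled control 1. In that fit the WAVE subunit Wasf1 had a low unadjusted p in the other direction, at −0.50, against 6.24% lower among all genes. With all 6 libraries, none of these lists had a member called in either direction.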

How the data were processed

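Gene levels of 6 RiboTag libraries, 3 per diet, were analysed. The authors deposited TPM values per gene and, per the file headers, a DESeq2-style table. Its baseMean is a signal, the deposited mean of normalized counts. Fold changes in it were deposited as log2 values with standard errors. Its test statistic is a score deposited by the authors, and its p-value columns are theirs, raw and adjusted; the numerator is not named in the file headers. The submitters' processing notes name build mm39, R 4.1.0, DESeq2 1.32.0, STAR 2.7.10a, Subread 2.0.1 and featureCounts; the sources used here do not give annotation, gene lengths or filters. Libraries were not stranded, per the labels' protocols, so overlapping antisense genes cannot be told apart. TPM keeps no depth, so no counting interval is given.

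Differences by label were tested two-sided in limma (3.58.1, run under R 4.3.3) after taking log2(TPM + 1) and with its mean-variance trend. Genes averaging 1 TPM or more, 13084 of 26264, entered, and p-values were adjusted by Benjamini-Hochberg with the threshold at 0.05; on this scale differences of low genes are understated. The step was tested on simulated data. Named members are those with a mean of at least 20 TPM, the 2 most abundant of each family, the 6 with the smallest p in each direction and any called. Members, lists and alternatives were chosen with earlier results of these data known. Alternatives were another pseudocount, 2 other filters, size factors, a loess correction on length, no mean-variance trend, a replicate block, and leaving out libraries.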

Additional observations from a re-analysis of the deposited data

How the results depend on the processing

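Counts of called genes hung on single libraries. With each library left out in turn, limma called between 0 and 2600 of all tested genes higher and between 0 and 1154 lower, between 0 and 33 members higher, and between 0 and 19 genes of the partner lists higher. The highest counts all came without the library labelled control 2, and without the one labelled PLX5622 1 the counts over all genes were 1 higher and 35 lower. Without both libraries labelled PLX5622 3 and control 3, 2 genes were called higher and 12 lower. No member was called lower in any alternative. The causes were not tested. Signs changed in 6 named genes with small differences. With each library left out in turn, Cdh22 ranged from −0.15 to 0.060, Cdh9 from −0.29 to 0.13, Cdh18 from −0.14 to 0.020, Pcdh19 from −0.23 to 0.16 and Pcdh20 from −0.13 to 0.28. Cdh22 was at 0.0060 without PLX5622 3 and control 3. The loess on length put Pcdh20 at −0.14 and Pcdh7 at −0.017. The median of the members was between 0.22 and 0.57 in all alternatives, the lowest with no filter and the highest without control 2. Same-numbered libraries did not deviate together (r = −0.033, −0.27 and −0.15), so the numbers are not read as pairs; with the replicate number as a block, limma called 0 genes, and the lowest adjusted p of a member was 0.156. TPM without depth limits what can be said of members under 1 TPM.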

Other observations

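Other genes of the cadherin superfamily and its pathway did not share the direction of the clustered protocadherins throughout. A list of 17 such genes includes the kinase Fjx1, which acts on Fat and Dachsous cadherins and is not itself a cadherin. Of these, 11 were tested, 8 with a positive and 3 with a negative difference by label, against 61.1% positive among all tested genes. The median was 0.14, and limma called 0 of them. Fat1, a giant cadherin of cell polarity and growth control, had 18.4, 13.7 and 19.5 TPM in the libraries labelled PLX5622, against 7.55, 16.8 and 8.68 TPM in those labelled control, with overlap and a difference of 0.66 ± 0.26 (limma adjusted p = 0.205). Clstn3, a calsyntenin of synapses, had 38.9, 25.1 and 26.5 TPM in the libraries labelled PLX5622, against 39.4, 47.9 and 39.1 TPM in those labelled control. Every library labelled PLX5622 was below every one labelled control for Clstn3, and the difference was −0.49 ± 0.18 (limma adjusted p = 0.205). Dchs1, the partner of Fat4 in planar polarity, differed by 0.40 ± 0.18, and Celsr1, a polarity receptor, by 0.54 ± 0.22. Relative length was 4.69 in Fat1, 3.44 in Dchs1 and 3.56 in Celsr1, and these differences are not corrected for length. When the library labelled control 1 was left out, 7 of the 11 were positive, against 54.4% of genes, and the median was 0.019. None of Fat1, Dchs1 and Celsr1 then had a low unadjusted p. These values are a description; neuron markers, negative in 12 of 12, were given with the type II cadherins.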
